A study of Mus musculus with 15 samples.

Results

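The inflammatory caspase genes of mouse chromosome 9, *Casp1*, *Casp4* and *Casp12*, lie side by side, and the regions described here are those chosen by position, as listed regions that overlap 9:5290000-5376000 of mm39, an interval of 86 kb. The interval was itself selected on counts of these libraries, so every difference between lines at its regions is given as a description. Of 44598 regions listed for the knockdown comparison (the KD table) it held 5, and of 38036 listed for the overexpression comparison (the OE table) it held 0. All 5 members were regions of *Casp1* or *Casp12*, and *Casp4* had none.

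By the study's methods, open chromatin was profiled with ATAC-seq, which uses a transposase to tag accessible DNA. The 15 libraries were of 6DT1 cells, a mouse mammary cancer cell line, grown as a monolayer on plastic with no treatment named besides selection drugs. There were 3 libraries each of *Smarcd1* overexpression cells (OE) and of their empty vector control (EV), and 3 libraries each of the *Smarcd1* knockdown lines KD4 and KD6 and of their shScramble control (Scr). *Smarcd1* encodes BAF60a, a subunit of the BAF chromatin-remodeling complex. Each line was a transduced and drug-selected 6DT1 line. By the paper, puromycin was added to the medium of knockdown cells and blasticidin to that of overexpression cells. OE cells carried a Myc-tagged *Smarcd1* cDNA under a pol2 promoter and EV cells a vector without it. Scr cells carried a scrambled hairpin in place of the *Smarcd1* hairpins of KD4 and KD6. The paper names the hairpins and the cDNA, but the labels do not say which hairpin KD4 or KD6 carries. No cell clone is named for any line. The libraries of a line were replicates which, according to the labels, were seeded from different passages on subsequent days. Totals over the regions of the KD table ranged from 17239365 to 23298446 counts in OE and from 21050527 to 23703741 in EV. They ranged from 17339305 to 21216310 in KD4, from 17767562 to 22133596 in KD6 and from 16176521 to 19152961 in Scr. OE and EV formed one set of lines and KD4, KD6 and Scr another. A difference between the sets cannot be told apart from any batch, vector or selection drug of the sets. The regions carry no gene names and no annotation of mm39 was used here, so the cell type of the lines was not checked against its markers.

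Inflammatory caspases are cysteine proteases made as inactive precursors. Caspase 1 is recruited by inflammasomes, where it matures Il1b and Il18 and cleaves gasdermin D, which then forms pores and leads to pyroptosis. The product of mouse *Casp4*, known also as *Casp11*, responds to cytosolic lipopolysaccharide and cleaves the same gasdermin. The product of *Casp12* has been placed at the endoplasmic reticulum and has been linked to the response to misfolded protein and to damping of inflammatory caspase signalling. These genes are best known from macrophages, and *Casp1* is also expressed by epithelial cells.

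The starts of the genes are shown because no listed region lay on them. The promoters, from 250 bases before to 50 bases after the annotated start, are those of RefSeq for GRCm38.p6, a build that was not combined with the mm39 positions of the regions. They span chr9:5298267-5298566 for *Casp1*, chr9:5308599-5308898 for the first of the *Casp4* entries and chr9:5345226-5345525 for *Casp12*, all on the plus strand. Capitals mark matches to any of 5 motifs, searched on both strands.
Casp1: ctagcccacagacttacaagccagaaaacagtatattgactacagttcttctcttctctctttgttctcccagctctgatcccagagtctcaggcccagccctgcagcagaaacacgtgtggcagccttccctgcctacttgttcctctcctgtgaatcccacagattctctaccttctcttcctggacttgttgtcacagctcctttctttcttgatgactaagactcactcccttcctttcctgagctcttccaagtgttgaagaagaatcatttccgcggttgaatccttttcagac
Casp4: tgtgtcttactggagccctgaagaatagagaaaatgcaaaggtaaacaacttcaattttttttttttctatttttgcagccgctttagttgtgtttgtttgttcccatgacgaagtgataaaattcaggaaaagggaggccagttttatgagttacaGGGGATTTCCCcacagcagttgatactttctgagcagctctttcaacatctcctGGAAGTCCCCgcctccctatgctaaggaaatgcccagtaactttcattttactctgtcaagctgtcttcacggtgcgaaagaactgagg
Casp12: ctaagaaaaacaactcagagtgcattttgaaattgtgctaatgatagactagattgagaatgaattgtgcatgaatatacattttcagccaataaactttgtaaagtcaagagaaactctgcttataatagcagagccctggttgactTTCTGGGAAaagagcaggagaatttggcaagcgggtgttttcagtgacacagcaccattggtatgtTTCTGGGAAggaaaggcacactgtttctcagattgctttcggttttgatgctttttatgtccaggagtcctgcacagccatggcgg
The motifs were AP-1 (TGANTCA), the STAT element GAS (TTCNNNGAA), the interferon element core (GAAANNGAA), kappaB and the p53 half-site, and their shares of 32851 RefSeq promoters of the same length were 7.81%, 8.30%, 8.56%, 8.46% and 8.36%. The *Casp1* promoter had 0 matches to these letters. The *Casp4* promoter had 3 matches to kappaB, at -93, -92 and -39 from the start, of which the first and second overlap. The *Casp12* promoter had 2 matches to GAS, both reading TTCTGGGAA, at -102 and -36. The G and C content was 48% in *Casp1*, 42% in *Casp4* and 41% in *Casp12*.

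Each member region was short and lay inside a gene. Casp1 region 1 (9:5299329-5299546, 218 bp) began 829 bp after the approximate start of *Casp1*, and Casp1 region 2 (9:5303555-5303768, 214 bp) began 5055 bp after it. Casp12 region 1 (9:5346481-5346717, 237 bp) began 1081 bp after the approximate start of *Casp12*. Casp12 region 2 (9:5353568-5353948, 381 bp) began 8168 bp after that start, and Casp12 region 3 (9:5372337-5372560, 224 bp) ended 540 bp before the approximate end of the gene. Between the last *Casp1* region and the first *Casp12* region 42712 bp held no listed region, the whole 28.0 kb of *Casp4* included. The nearest listed region before the cluster was 320179 bp away and the nearest after it 1408128 bp away. The 3 regions within 500 kb of the interval all lay before it.

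The member regions coincided with exons. The build of the available annotation (gencode vM1 on NCBIM37) differs from that of the regions, so only the spacing of its exons was used, by sliding the 5 regions together along the exons of the 3 genes. The most overlap was reached at 6 shifts, the smallest of them 1 bp, where 95.7% of the 1274 region bases lay on exons, and exons make up 9001 of the 64262 bases spanned by these genes. At shifts over 400 bp away from it, up to 3000 bp each way, at most 61.1% did. At the shift of 1 bp Casp1 region 1 lay on exon 2 of 10, with 99.5% of its bases on annotated exons, and Casp1 region 2 lay wholly within exon 6, which is 235 bp long. Casp12 region 1 lay wholly within exon 2 of 11. Casp12 region 2 lay over exon 7, also of 235 bp, with 85.8% of its bases on annotated exons. Casp12 region 3 lay wholly within the last exon, of 1280 bp, on 0 coding bases. *Casp4* also has an exon of 235 bp, its exon 5, and no region was listed on it. The labels describe an RNA extraction where the methods describe transposition of nuclei, and whether the counts at these exons hold ATAC-seq reads alone was not tested.

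**Figure D1:**
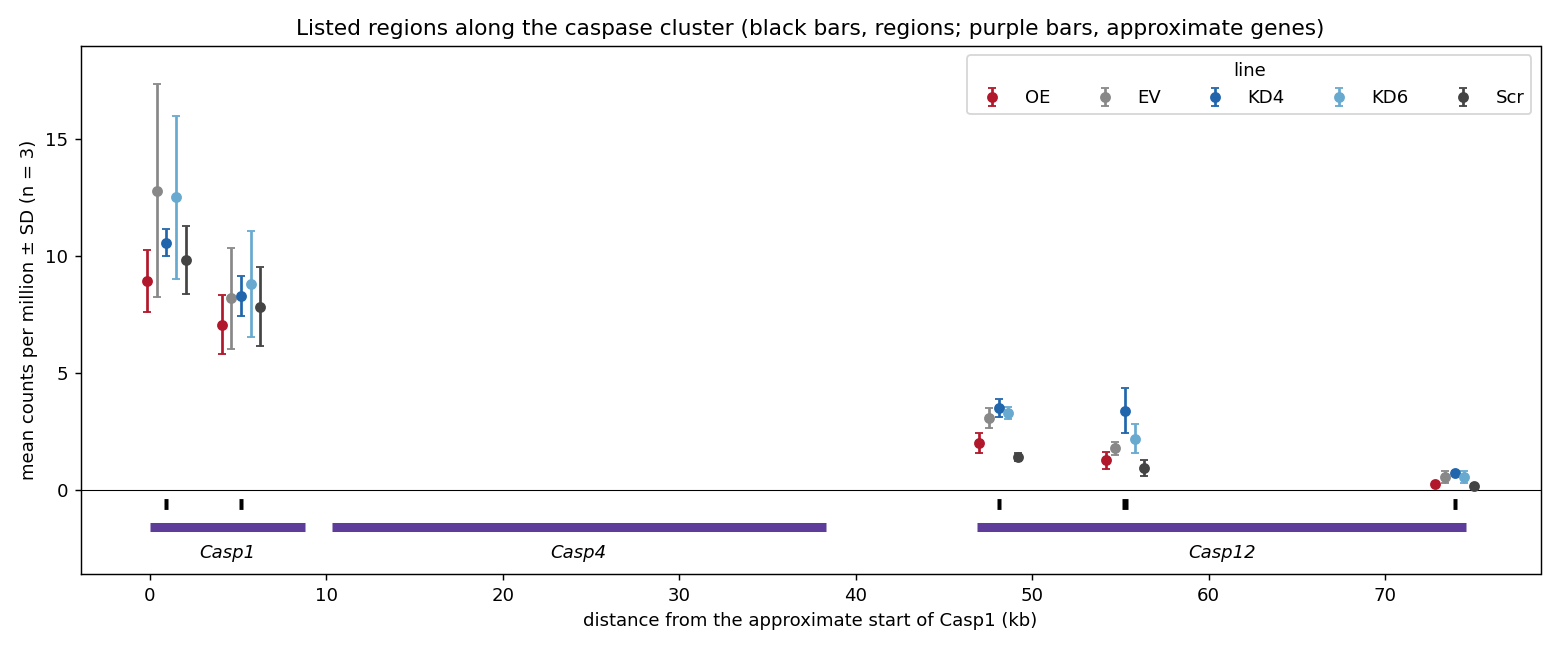
Mean counts per 1000000 counts of the library (CPM) ± SD (n = 3 libraries) of the 5 listed regions in OE, EV, KD4, KD6 and Scr, against distance in kb from the approximate start of *Casp1*; points of the lines are set slightly apart sideways, black bars are regions and purple bars the approximate genes. The line means of the *Casp1* regions lie from 7.07 to 12.8 CPM, those of the last *Casp12* region from 0.171 to 0.726 CPM, and *Casp4* has no region.

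The cluster was unevenly covered. CPM were scaled by TMM, a factor that corrects each library's total for its composition, over all 15 libraries. Over them Casp1 region 1 averaged 10.9 CPM and Casp1 region 2 averaged 8.04 CPM, above 66.7% and 59.2% of all regions, whose median was 5.66 CPM. Casp12 region 1 averaged 2.66 CPM, above 29.3% of all regions. Casp12 region 2 averaged 1.92 CPM, above 20.6%, and Casp12 region 3 averaged 0.452 CPM, above 0.931%. Scaled by length, the order was the same, with 50.2, 37.6, 11.2, 5.04 and 2.02 CPM per kb along the chromosome. The level per kb thus fell at each step from Casp1 region 1 to Casp12 region 3.

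*Casp1*, the caspase of the canonical inflammasome, gave levels that overlapped between all lines. At Casp1 region 1 the libraries had 8.61, 10.4 and 7.84 CPM in OE and 18.0, 11.1 and 9.32 CPM in EV. In the knockdown set they had 10.6, 9.97 and 11.1 CPM in KD4, 15.8, 8.88 and 12.8 CPM in KD6 and 11.4, 8.60 and 9.50 CPM in Scr. EV replicate 1 and KD6 replicate 1 stood highest, and the ranges of all lines overlapped. At Casp1 region 2 they had 6.86, 8.42 and 5.92 CPM in OE and 6.27, 10.5 and 7.82 CPM in EV. In the knockdown set they had 9.24, 7.58 and 8.04 CPM in KD4, 10.3, 6.19 and 9.89 CPM in KD6 and 9.40, 6.04 and 8.06 CPM in Scr. No pair of lines in the comparisons below was separated at either region.

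*Casp12*, the caspase linked to the endoplasmic reticulum, gave levels that were higher in the knockdown lines than in Scr, and lower in OE and in Scr than in EV. At Casp12 region 1 the OE libraries had 2.53, 1.78 and 1.75 CPM (49, 40 and 31 counts) and the EV libraries 3.58, 2.81 and 2.82 CPM (73, 63 and 60 counts). The KD4 libraries had 3.15, 3.45 and 3.94 CPM (56, 75 and 76 counts), the KD6 libraries 3.52, 2.99 and 3.38 CPM (76, 59 and 64 counts) and the Scr libraries 1.48, 1.20 and 1.55 CPM (24, 23 and 29 counts). All 6 knockdown libraries stood above all 3 Scr libraries, and all OE and all Scr libraries stood below all EV libraries.

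At Casp12 region 2 the OE libraries had 1.39, 1.56 and 0.846 CPM (27, 35 and 15 counts) and the EV libraries 2.11, 1.65 and 1.60 CPM (43, 37 and 34 counts). The KD4 libraries had 2.42, 4.32 and 3.47 CPM (43, 94 and 67 counts), the KD6 libraries 2.92, 1.78 and 1.90 CPM (63, 35 and 36 counts) and the Scr libraries 0.680, 1.35 and 0.801 CPM (11, 26 and 15 counts). The same separations held as at Casp12 region 1, with KD4 replicate 2 the highest library. That of OE from EV was narrow, with OE replicate 2 (1.56 CPM, 35 counts) just below EV replicate 3 (1.60 CPM, 34 counts). Casp12 region 3 was covered by few reads, with 6, 5 and 4 counts in OE, 17, 12 and 7 in EV, 11, 17 and 15 in KD4, 15, 5 and 13 in KD6 and 4, 2 and 3 in Scr. After scaling its levels were 0.309, 0.223 and 0.225 CPM in OE, 0.833, 0.536 and 0.330 CPM in EV, 0.620, 0.781 and 0.778 CPM in KD4, 0.694, 0.254 and 0.687 CPM in KD6 and 0.247, 0.104 and 0.160 CPM in Scr. The separations held there too, by narrow margins between KD6 replicate 2 and Scr replicate 1 and between OE replicate 1 and EV replicate 3.

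**Figure D2:**
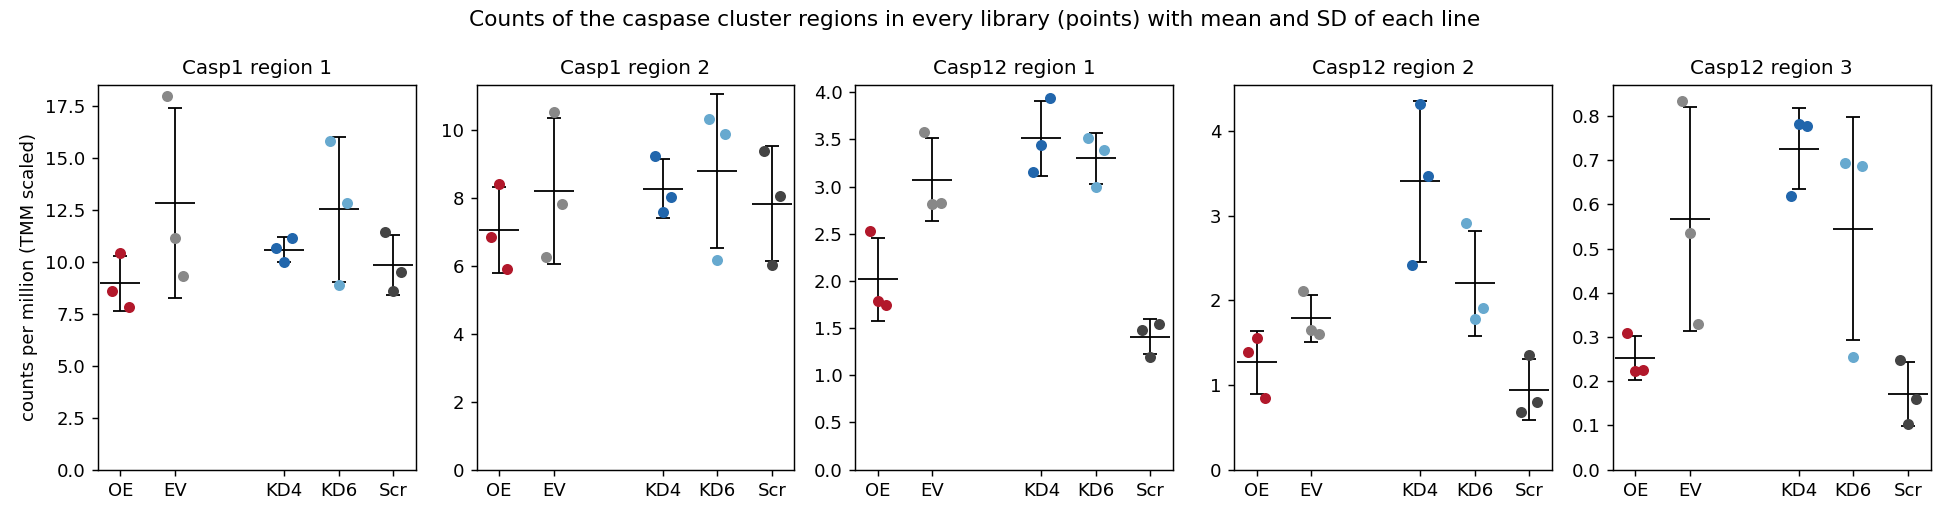
CPM, scaled by TMM, of each of the 5 regions in every library of OE, EV, KD4, KD6 and Scr (points), with bar and whiskers for mean and SD (n = 3). The vertical scales differ between panels. At the 3 Casp12 regions all KD4 and KD6 points lie above all Scr points and all OE points below all EV points, and at the 2 Casp1 regions the points of the lines overlap.

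Summed over its 3 regions, *Casp12* averaged 3.54 ± 0.705 CPM in OE and 5.43 ± 0.955 CPM in EV (SD, n = 3 each). It averaged 7.64 ± 1.27 CPM in KD4, 6.04 ± 1.05 CPM in KD6 and 2.53 ± 0.124 CPM in Scr. The order was KD4, KD6, EV, OE and Scr. Of the neighbours in that order, KD4 and KD6 overlapped, and so did KD6 and EV. The highest OE library (4.23 CPM) lay below the lowest EV library (4.76 CPM), and the lowest OE library (2.82 CPM) lay above the highest Scr library (2.66 CPM). OE and Scr overlapped at Casp12 regions 2 and 3 taken singly. The 2 *Casp1* regions summed to 16.0 ± 2.59 CPM in OE and 21.0 ± 3.61 CPM in EV, and to 18.9 ± 1.20 CPM in KD4, 21.3 ± 5.68 CPM in KD6 and 17.7 ± 3.10 CPM in Scr, a spread that left no line apart.

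The share of the cluster's counts that fell on *Casp12* does not depend on how libraries are scaled. It was 18.1 ± 2.94% in OE and 20.6 ± 1.58% in EV, and 28.8 ± 4.60% in KD4, 22.4 ± 2.26% in KD6 and 12.7 ± 2.50% in Scr. By library it was 21.5, 15.9 and 17.0% in OE, 21.2, 18.8 and 21.7% in EV, 23.8, 32.7 and 29.9% in KD4, 21.4, 25.0 and 20.8% in KD6 and 10.4, 15.4 and 12.5% in Scr. All knockdown libraries lay above all Scr libraries. OE and EV overlapped in this share, and the mean of OE was below that of EV at *Casp1* as well as at *Casp12*. So far as the counts are of accessible DNA, fewer cells with an open region and less opening per cell cannot be told apart.

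**Figure D3:**
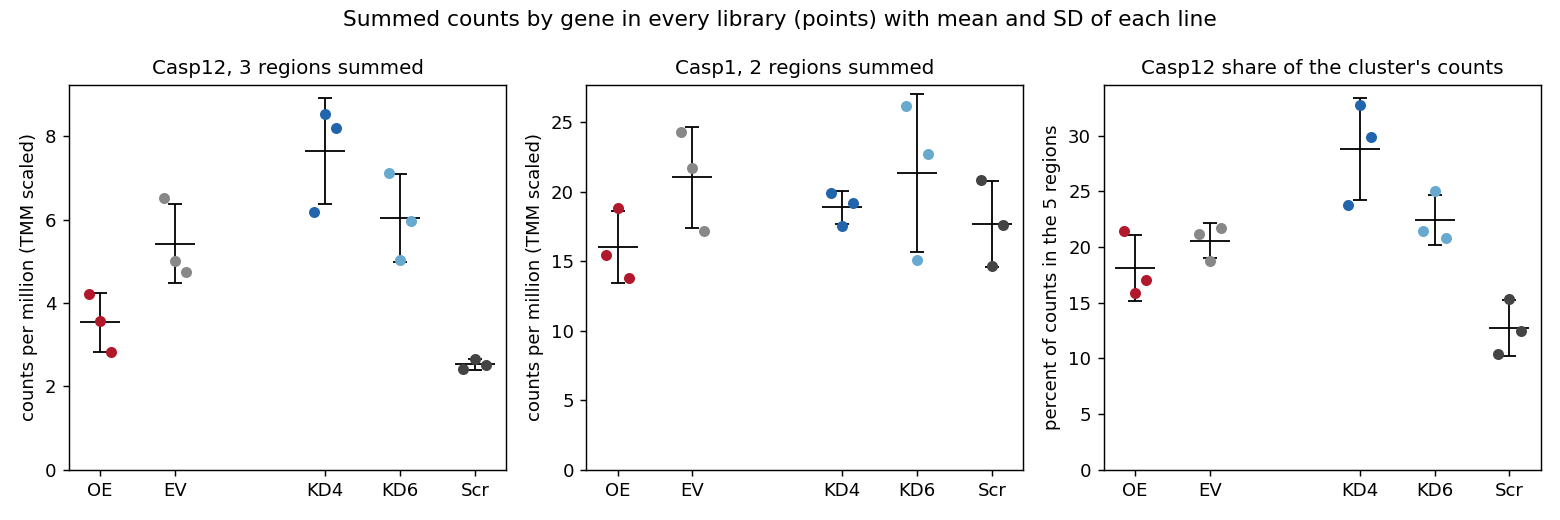
CPM summed over the 3 Casp12 regions (left) and the 2 Casp1 regions (middle), and the Casp12 share of the counts of all 5 regions in percent (right), in every library of OE, EV, KD4, KD6 and Scr (points), with bar and whiskers for mean and SD. The Casp12 sum is 7.64 CPM in KD4, 6.04 CPM in KD6 and 2.53 CPM in Scr, and the Casp1 sums of the lines overlap.

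The first comparison asked how the counts differed in the *Smarcd1* knockdown lines. In the edgeR fit of KD4, KD6 and Scr, with both knockdown lines averaged against Scr, the log2 fold change was 1.27 ± 0.204 (SE) at Casp12 region 1, 1.52 ± 0.293 at region 2 and 1.88 ± 0.479 at region 3, or 2.42-, 2.87- and 3.68-fold. It was 0.23 ± 0.167 at Casp1 region 1 and 0.13 ± 0.180 at Casp1 region 2, with intervals of 2 SE from -0.10 to 0.56 and from -0.23 to 0.49, and without Scr replicate 2 the second was -0.03. Casp12 region 3 had 4, 2 and 3 counts in Scr, and it passed the filter on low counts only through the knockdown libraries, where it was higher. At an FDR of 0.05, 2 of the 5 members (Casp12 regions 1 and 2) were called higher, where 0.255% of all 44289 regions tested were, 113 in number. Since the interval was selected on these counts, nothing is read from that count. It fell to 0 when Scr replicate 1, 2 or 3 was left out and to 1 when KD4 replicate 2 or 3 or KD6 replicate 1 or 2 was, while the fold change of Casp12 region 1 stayed between 1.16 and 1.35 on the log2 scale. The share of all regions with every knockdown library above every Scr library was 2.45%.

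Each knockdown line showed the difference when set against Scr alone. In KD4 the log2 fold change was 1.32 ± 0.227 at Casp12 region 1, 1.83 ± 0.319 at region 2 and 2.09 ± 0.517 at region 3, and 2 of 5 members were called higher, where 0.431% of all regions were. That count was 0 without KD4 replicate 2 or without Scr replicate 1 or 3, and 1 without KD4 replicate 3 or Scr replicate 2. In KD6 it was 1.23 ± 0.227, 1.20 ± 0.330 and 1.68 ± 0.540, and 1 of 5 members (Casp12 region 1) was called higher, where 0.142% of all regions were. The KD6 count was 0 without any 1 of the KD6 or Scr libraries, and also without TMM scaling. At the *Casp1* regions the values were 0.11 ± 0.192 and 0.08 ± 0.207 in KD4 and 0.35 ± 0.190 and 0.17 ± 0.206 in KD6. In KD6 the first of these was 0.14 without KD6 replicate 1 and 0.55 without KD6 replicate 2, and in KD4 the second was -0.08 without Scr replicate 2. KD4 and KD6 were set against the same Scr libraries.

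The knockdown lines were also set against each other. KD6 minus KD4 was -0.09 ± 0.204 on the log2 scale at Casp12 region 1, -0.63 ± 0.282 at region 2 and -0.41 ± 0.407 at region 3, with intervals of 2 SE from -0.50 to 0.32, from -1.20 to -0.07 and from -1.22 to 0.40. It was 0.24 ± 0.189 at Casp1 region 1 and 0.09 ± 0.205 at Casp1 region 2. Without KD6 replicate 1 these were 0.04 and -0.04, and without KD6 replicate 2 the first was 0.44. No member was called by edgeR or DESeq2, where 0.224% of all regions were called in either direction by edgeR. With an unadjusted p under 0.05 by each tool there was 1 member, Casp12 region 2. Of all 44289 regions tested, 1387 were higher and 1433 lower with such a p by edgeR, and 1204 and 1222 by DESeq2. No member was separated between the lines, where 5.91% of all regions had every KD6 library above every KD4 library and 5.83% below.

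The second comparison asked the same of *Smarcd1* overexpression. The OE table lists no region of the cluster, so the OE and EV libraries were taken from the KD table. The log2 fold change of OE against EV was -0.60 ± 0.231 at Casp12 region 1 and -0.47 ± 0.285 at Casp12 region 2, and -0.50 ± 0.196 at Casp1 region 1 and -0.21 ± 0.190 at Casp1 region 2. Casp12 region 3 did not pass the filter on low counts, so 4 of 5 members were tested. None of the 4 was called by edgeR or DESeq2, and 2 had an unadjusted p under 0.05 with each tool. Over all 44011 regions tested edgeR called 0.0%, while 1469 were higher and 1434 were lower with an unadjusted p under 0.05, and DESeq2 called 4 (lower). The 3 Casp12 regions had every OE library below every EV library, narrowly at regions 2 and 3, as had 5.17% of all regions. At Casp1 region 1 the value was -0.18 without EV replicate 1, and at Casp1 region 2 it was 0.02 without EV replicate 2, each the highest EV library of its region.

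The control lines differed from each other at *Casp12*. Scr against EV, in the fit of all 15 libraries, gave a log2 fold change of -1.12 ± 0.228 at Casp12 region 1, -0.90 ± 0.328 at region 2 and -1.72 ± 0.525 at region 3. It gave -0.38 ± 0.213 at Casp1 region 1 and -0.07 ± 0.213 at Casp1 region 2, and without EV replicate 1 the first of these was -0.06, and without EV replicate 2 the second was 0.15. Casp12 region 3 passed the filter on low counts there through the knockdown libraries. With the Scr and EV libraries alone 4 members were tested, without that region. 1 of the 5 members (Casp12 region 1) was called lower, where 3.36% of all 44444 regions were. It was called under each of the 15 settings tried, which refit the same counts. By edgeR, Casp12 regions 2 and 3 had an FDR of 0.096 and 0.053. As with the other counts of members called, nothing is read from it, since the interval was selected on these libraries. The 3 Casp12 regions had every Scr library below every EV library, as had 13.1% of all regions.

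Because Scr stood below EV, the knockdown comparison was repeated with EV in place of Scr, in the fit of all 15 libraries, an alternative chosen after seeing the data. Both knockdown lines averaged against EV gave a log2 fold change of 0.15 ± 0.177 at Casp12 region 1, 0.62 ± 0.250 at region 2 and 0.16 ± 0.348 at region 3, with intervals of 2 SE from -0.20 to 0.50, from 0.12 to 1.12 and from -0.53 to 0.86. It gave -0.15 ± 0.181 at Casp1 region 1 and 0.05 ± 0.182 at Casp1 region 2. No member was called by edgeR, where 3.34% of all regions were called in either direction. With an unadjusted p under 0.05 there was 1 member, where 4509 of all 44444 regions were higher and 4840 lower with such a p. No member was separated. Of all regions 4.31% had every knockdown library above every EV library, and 4.30% had every one below. The comparisons with Scr and with EV share the knockdown libraries, and knockdown and EV lines belong to different sets.

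**Figure D4:**
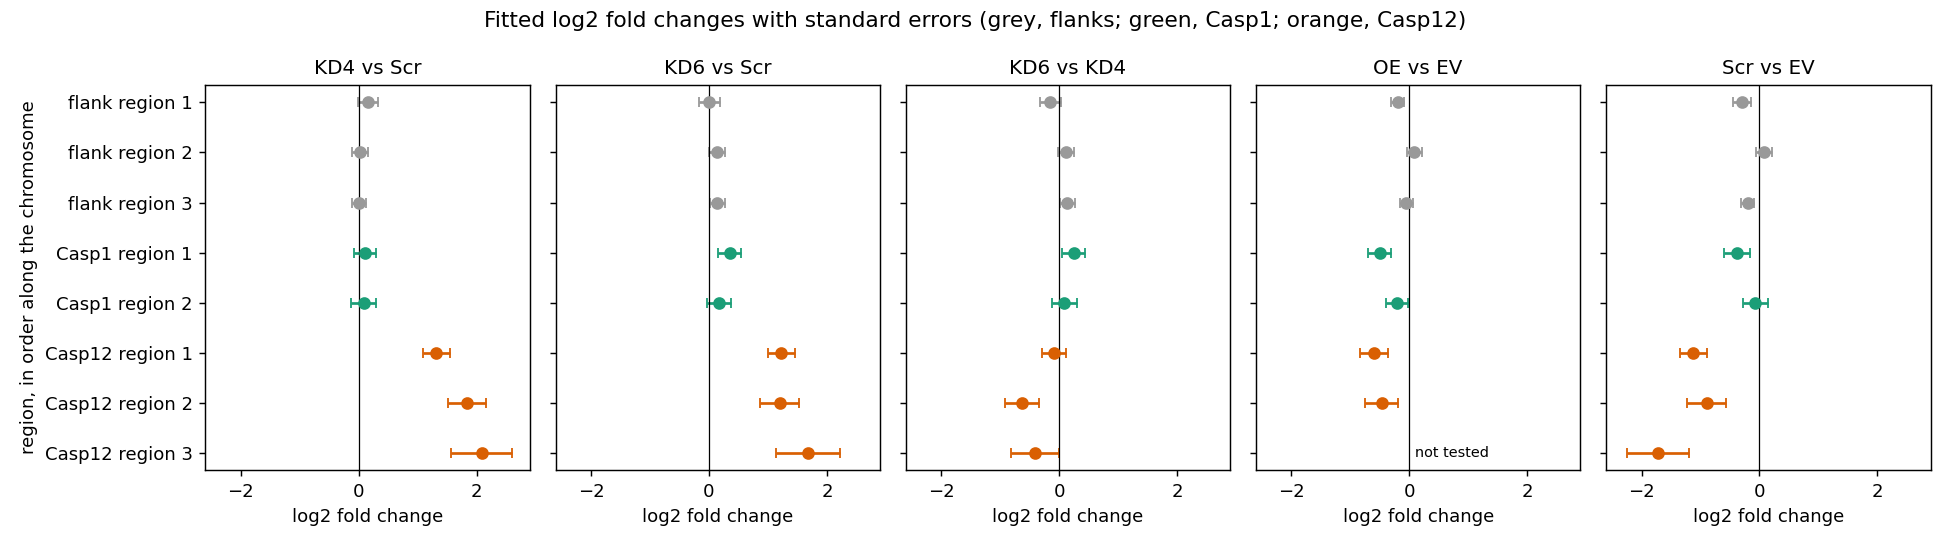
Fitted log2 fold changes (points) with standard errors (bars) of the 3 listed regions before the cluster (grey), the 2 Casp1 regions (green) and the 3 Casp12 regions (orange), in order along the chromosome, for KD4 vs Scr, KD6 vs Scr, KD6 vs KD4, OE vs EV (where Casp12 region 3 was not tested and is marked so) and Scr vs EV. The Casp12 regions stand from 1.20 to 2.09 in both knockdown lines against Scr and from -1.72 to -0.90 in Scr against EV, and the grey points lie from -0.30 to 0.15.

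The listed regions before the cluster gave smaller values than *Casp12*. With both knockdown lines averaged against Scr they gave log2 fold changes of 0.08 ± 0.151, 0.07 ± 0.120 and 0.07 ± 0.105. For OE against EV they gave -0.20 ± 0.113, 0.09 ± 0.128 and -0.05 ± 0.113, and for Scr against EV -0.30 ± 0.157, 0.08 ± 0.136 and -0.20 ± 0.114. These regions were far deeper, at 54.6 ± 7.32, 31.9 ± 1.24 and 124.6 ± 13.5 CPM in Scr, the last being the nearest to the cluster.

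Within the cluster the *Casp12* regions varied together, differences between lines included. Line means were not removed, so the values below partly restate those differences, and correlations within lines were not computed. Over the 15 libraries, which share their totals between regions, Pearson's r of the log2 levels was 0.91 between Casp12 regions 1 and 3, 0.81 between regions 1 and 2 and 0.78 between regions 2 and 3, and Spearman's rho was 0.93, 0.93 and 0.87. The *Casp1* regions gave an r of 0.43 and a rho of 0.68 with each other. Casp1 region 2 gave an r of 0.26, 0.17 and 0.40 with Casp12 regions 1, 2 and 3 (rho 0.17, 0.19 and 0.24), and Casp1 region 1 an r of 0.51, 0.38 and 0.68 (rho 0.59, 0.48 and 0.66).

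Among the 23821 regions of at least 5 CPM outside the cluster and its surroundings, those most like the summed counts of the cluster over the 15 libraries were 5:8118062-8119151 (Pearson's r 0.87), 8:107771707-107772036 (0.85), 12:10444595-10445388 (0.85), 13:74086574-74086747 (0.83) and 7:60403306-60403676 (0.82). The first of them averaged 25.7 CPM in OE and 29.3 CPM in EV, and 31.2 CPM in KD4, 32.1 CPM in KD6 and 24.1 CPM in Scr. Against the *Casp12* regions alone the most alike, a choice made after seeing the data, were 8:36332752-36333450 (0.91) and 6:99602338-99604010 (0.89). That region of chromosome 6 averaged 8.73 CPM in OE and 9.59 CPM in EV, and 18.1 CPM in KD4, 11.3 CPM in KD6 and 6.59 CPM in Scr. These are the extremes of many correlations and carry no test.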

How the data were processed

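Per the methods, nuclei were transposed and sequenced in paired ends, and the authors used Bowtie2 (build mm39) and MACS, run in Partek Flow. The submitters' processing notes name STAR 2.7.8a instead. The step that merged peaks into 1 list per comparison was not given in the sources read here. As deposited, values were expected counts (estimated counts, not normalized), of which 95.1% were whole in the KD table, and they were rounded to whole numbers. In each file 15 further columns belonged to no sample and stayed unused.

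Groups came from the sample labels. Regions were tested on the whole KD table with edgeR 4.0.16 in R 4.3.3 (quasi-likelihood, TMM, the tool's filter on low counts, Benjamini-Hochberg over all regions, FDR 0.05). KD4, KD6 and Scr shared a fit, OE and EV another, and Scr against EV used all 15 libraries as 5 groups. The OE table was planned for OE against EV but lists no region of the cluster, so the KD table was used. The SE of a log2 fold change was its absolute value divided by the square root of the F statistic of the quasi-likelihood test. Log2 levels used a prior count of 2. Replicates differed by more than sampling noise (smallest ratio 3.53). The procedure was checked on simulated data. DESeq2 1.42.0, other scalings, filters and thresholds, a replicate block and leaving out each library were alternatives. The 5 regions are all named; those most like them had at least 5 CPM and the highest Pearson's r. Members and lists were chosen with earlier results of these data known. The lists of related genes and cell type markers, and the sequences of the regions, need mm39 references and were not used here.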

Additional observations from a re-analysis of the deposited data

How the results depend on the processing

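No alternative turned the direction of a called region. At an FDR of 0.01 0 members were called for KD, KD4 or KD6 against Scr, where 13, 27 and 14 of all regions were called higher. At an FDR of 0.10 3 members were lower in Scr against EV, where 3011 of all 44444 regions were. Without TMM scaling 0 members were called for KD6 against Scr, where 55 of all regions were called higher. With each library left out in turn the members called ranged from 0 to 2 for KD against Scr, from 0 to 2 for KD4 against Scr, from 0 to 0 for KD6 against Scr and from 1 to 2 for Scr against EV. Over all regions those called higher ranged from 8 to 156, from 38 to 167 and from 7 to 66 for KD, KD4 and KD6 against Scr. For Scr against EV those called lower ranged from 341 to 2070. Where leaving out a library left 2 in a line, the spread was pooled over the others. With the replicate number as a block the members called were 1 for KD against Scr, 0 for KD6 against Scr and 2 for Scr against EV. Over all regions the block gave 95 and 54 called higher and 2061 called lower, in the same order. There edgeR gave an FDR of 0.064 at Casp12 region 2 for KD and of 0.062 at Casp12 region 1 for KD6. The labels do not say that a number marks a day shared by the lines, and samples of the same number did not all deviate together (r from -0.20 to 0.33, median 0.04, over 30 pairs), so the number is not taken as a pairing, though 9 of 15 libraries correlated best with one of their own number and the 6 pairs of replicates 3 without KD4 gave r from 0.18 to 0.33. The log2 fold change of the summed counts of the cluster, most of them from *Casp1*, was 0.41 for KD, 0.40 for KD4 and 0.42 for KD6 against Scr and -0.39 for Scr against EV, and the median of the single regions was 1.27, 1.32, 1.20 and -0.90 in the same order, since each region then counts alike. The cause of the other changes was not tested.

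Over all regions edgeR called 113 higher and 7 lower for KD against Scr, DESeq2 called 255 and 22, and the fit of all 15 libraries 222 and 22. For Scr against EV edgeR called 1171 higher and 1494 lower, and 1592 and 725 without TMM scaling, which moved the median of all regions to 0.13 on the log2 scale, whereas Casp12 region 1 was called lower there too. The regions of the OE table could not be used as an alternative, since they include none of the cluster. Counts were under 20 in all libraries at Casp12 region 3 and in some OE and Scr libraries at Casp12 region 2, which limits both. Casp12 region 3 was called at an FDR of 0.05 in KD4 against Scr in the fit of all 15 libraries and in Scr against EV with the block or without EV replicate 3.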
